A study of Mus musculus with 2 samples.

Results

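The genes described are the subunits, assembly chaperones and regulators of the proteasome, chosen as all genes whose symbol is Psm followed by a letter from a to g and a number. The rule found 49 of the 31053 genes in the files. They are 19 core genes (Psma and Psmb), 20 regulatory genes (Psmc and Psmd) and 10 others, which are the activators (Psme), the inhibitor Psmf1 and the core chaperones (Psmg). The data are counts of unique molecular identifiers (UMIs), each of which marks 1 captured RNA molecule, in nuclei of the entorhinal cortex. The mice were male and APP/PS1, that is, they carry transgenes that make amyloid build up in the brain. The vehicle library came from mice given DMSO and the OLE library from mice given N-oleoyl-leucine (OLE, C18:1-Leu in the labels) at 25 mg/kg/day. Dosing was through alkaline drinking water, began at 15 months of age and lasted 3 months, to 18 months. Each library was 1 pool of 5 mice, so there were no replicates, no test of the treatment was possible, and all mice carried the transgenes. All intervals are 95% intervals that cover counting error only, not the spread between mice.

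The proteasome is the protease that degrades most proteins tagged with ubiquitin. Its barrel-shaped core is built from rings of alpha subunits (Psma), which gate the entrance, and rings of beta subunits (Psmb), of which Psmb5, Psmb6 and Psmb7 carry the proteolytic sites. A regulatory cap binds the ubiquitin chain, removes it with the deubiquitinase Psmd14, and unfolds and feeds in the substrate with a ring of ATPases (Psmc). Immune cells exchange the catalytic subunits for Psmb9, Psmb10 and Psmb8, which make the immunoproteasome. When proteasome activity falls, the transcription factor Nfe2l1 (NRF1) is known to switch on subunit genes through antioxidant response elements in their promoters. Reduced proteasome activity has been described in Alzheimer disease brain, and neurons depend on the proteasome to turn over synaptic proteins.

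Promoter sequence is shown for the core subunits with the highest ratios among members with at least 100 UMIs in glutamatergic-like nuclei, Psmb5 and Psmb6, and for Psmd14, which had the lowest among them. Each is the 250 bases before the RefSeq start on GRCm38.p6, written 5′ to 3′ on the strand of the gene, with the core of the antioxidant response element (TGACNNNGC, searched on both strands) in capitals. The windows are chr14:54617996-54618245 on the minus strand, chr11:70525107-70525356 on the plus strand and chr2:61711444-61711693 on the plus strand. The GENCODE model of Psmb5 begins slightly upstream of the RefSeq start, so the last bases of its window lie within that model.
Psmb5: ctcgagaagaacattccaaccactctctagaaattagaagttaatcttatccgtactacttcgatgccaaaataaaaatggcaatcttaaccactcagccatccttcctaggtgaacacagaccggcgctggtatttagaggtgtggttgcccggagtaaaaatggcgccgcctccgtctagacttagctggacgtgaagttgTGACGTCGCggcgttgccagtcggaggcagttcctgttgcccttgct
Psmb6: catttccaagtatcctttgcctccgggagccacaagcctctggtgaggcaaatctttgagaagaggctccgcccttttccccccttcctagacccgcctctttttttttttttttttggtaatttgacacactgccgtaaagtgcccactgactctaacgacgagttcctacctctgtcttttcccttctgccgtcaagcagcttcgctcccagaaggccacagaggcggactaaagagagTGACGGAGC
Psmd14: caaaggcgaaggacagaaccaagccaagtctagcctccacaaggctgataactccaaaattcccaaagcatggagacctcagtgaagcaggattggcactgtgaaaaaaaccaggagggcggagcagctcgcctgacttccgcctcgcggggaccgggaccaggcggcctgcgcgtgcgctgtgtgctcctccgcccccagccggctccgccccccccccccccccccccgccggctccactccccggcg
The motif began 47 bases before the start of Psmb5 and 9 bases before that of Psmb6, and was not found in the window of Psmd14. In windows of 250 bases before to 50 after the start it was present in 6 of 44 member windows (13.6%), against 12.4% of all 32851 promoter windows. Counted by gene, these were 6 of the 41 members that had a window (14.6%). The others with it were Psmc6, Psmd9, Psmd12 and Psme4. The motif was therefore about as common among proteasome genes as among genes at large, and its presence is a match of letters, not evidence of binding.

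There were 6745 nuclei with 70845739 UMIs in vehicle (median 3989 per nucleus) and 6173 nuclei with 69485537 UMIs in OLE (median 6392). The libraries shared 14 barcodes. After removal of likely doublets, 12298 nuclei fell into 24 clusters, of which 20 could be named from markers, and 6762 nuclei belonged to the 6 types compared here. The markers of each type were found in its clusters, including Mbp and Mog in oligodendrocyte-like nuclei and Csf1r, Cx3cr1 and P2ry12 in microglia-like nuclei. The 2 largest clusters stayed unnamed for low UMI counts and stood apart by library: cluster 0 had 2277 vehicle and 345 OLE nuclei, and cluster 1 had 216 vehicle and 1695 OLE nuclei. A cluster that is mostly of 1 library may be that library rather than a cell type, so these 4533 nuclei are given separately as low-UMI clusters and enter no cell type.

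Proteasome genes were expressed in every cell type at a similar total level. The 49 genes gave 104699 UMIs in the vehicle library, or 1478 counts per 1000000 UMIs (CPM), and 110383 in the OLE library, or 1589 CPM. The total was uneven: Psme4, which encodes the activator PA200, gave 15.2% of it with 32690 UMIs, and Psme4 and Psmd14 together 25.4%. Next came the cap scaffold subunit Psmd1 with 13357 UMIs, the alpha subunit Psma3 with 12061 and the beta subunit Psmb2 with 9745. At the other end, Psmb11, the subunit of thymic epithelium, had 14 UMIs, the testis alpha subunit Psma8 144, and Psmg3 3, while Psme2b, a close copy of Psme2 with which it could share reads, had none, which allows up to 3 UMIs per library. The median member had 2717 UMIs, and 12 members had fewer than 1000.

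The order of UMIs among members followed gene length. Nuclear libraries that count introns catch more molecules from long genes, and over the 49 members the Spearman correlation of gene length with UMIs was 0.68, given as a description over genes that share both libraries. Psme4 is 108.6 kb long and Psmd14 88.7 kb, against a median of 11.8 kb. The shares of UMIs given below, of core genes and of the inducible subunits, are not corrected for length. Median levels of core and regulatory genes were compared per kb. On that scale the median core gene in glutamatergic-like nuclei was at 1.14 CPM per kb in vehicle and 1.16 in OLE. The median regulatory gene was at 1.37 and 1.53, and was also the higher in GABAergic-like, oligodendrocyte-like and OPC-like nuclei. The core median was the higher in microglia-like nuclei, at 3.62 and 3.07 against 1.62 and 1.82. It was slightly the higher in astrocyte-like nuclei, at 1.26 and 1.71 against 1.21 and 1.55.

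By cell type, microglia-like nuclei had the highest summed level. It was 1766 CPM (interval 1679 to 1856) in vehicle and 1842 (1744 to 1944) in OLE. Oligodendrocyte-like nuclei followed with 1527 and 1665 CPM. Glutamatergic-like nuclei had 1424 and 1496 and GABAergic-like nuclei 1417 and 1552. Oligodendrocyte precursor (OPC)-like nuclei had 1442 and 1407, while astrocyte-like nuclei had 1371 and 1503. The intervals of microglia-like nuclei lay above those of the neurons in both libraries, while the levels of the neuronal, OPC-like and astrocyte-like nuclei within a library differed by amounts similar to the difference between the libraries. Microglia-like nuclei were also the shallowest, with medians of 2456 and 2348 UMIs against 21067.5 and 19252 in glutamatergic-like nuclei, and the part of depth in these levels was not tested.

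**Figure D1:**
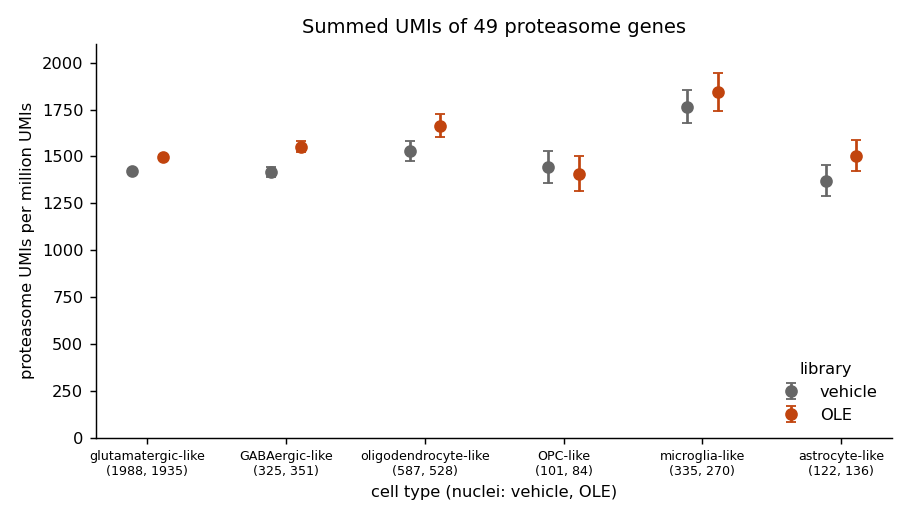
Summed UMIs of the 49 proteasome genes per 1000000 UMIs of the cell type (vertical axis), in the vehicle library (grey) and the OLE library (orange), with exact Poisson 95% intervals; the horizontal axis gives the 6 cell types with their nuclei. Microglia-like nuclei are highest in both libraries, at 1766 and 1842, and the OLE point is the lower of the pair only in OPC-like nuclei.

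Single members followed the same order only in part. Of 39 members with at least 500 UMIs in the 6 types, 19 in vehicle and 21 in OLE were highest in microglia-like nuclei, 12 of them in both libraries. Oligodendrocyte-like nuclei were highest for 11 and 7. The type with the highest level was the same in both libraries for 17 of the 39 and the type with the lowest for 11, so for most single subunits the order of cell types was not repeated between the libraries.

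The summed level was slightly higher in the OLE library in 5 of the 6 cell types. Core and regulatory ratios were similar in the neurons and in oligodendrocyte-like nuclei. The core ratio was above the regulatory ratio in OPC-like (0.08 and -0.03), microglia-like (0.13 and 0.03) and astrocyte-like nuclei (0.20 and 0.07). The intervals of these differences include 0. For all members together, the log2 ratio of OLE over vehicle was 0.07 in glutamatergic-like nuclei (interval 0.06 to 0.09), or 1.05-fold. It was 0.13 in GABAergic-like nuclei (0.09 to 0.17), 0.12 in oligodendrocyte-like nuclei (0.05 to 0.20) and 0.13 in astrocyte-like nuclei (0.02 to 0.25). In microglia-like nuclei it was 0.06 (-0.05 to 0.17) and in OPC-like nuclei -0.04 (-0.16 to 0.09), and both of these intervals include 0. All genes with at least 100 UMIs had a median of 0.07 for glutamatergic-like and 0.08 for GABAergic-like nuclei, and relative to those medians the sums were 0.0044 and 0.05. In glutamatergic-like nuclei the sum thus moved by about as much as the median gene.

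The sum hides the shorter genes, because Psme4 and Psmd14 weigh most in it and neither was higher in neurons. Psmd14 had 7780 and 6614 UMIs in glutamatergic-like nuclei, 167 and 156 CPM, a log2 ratio of -0.10 (-0.14 to -0.05), and was the only member there whose interval lay below 0. Psme4 had 11374 and 10069 UMIs, 244 and 238 CPM, a ratio of -0.04 (-0.08 to 0.00). Both went the other way from most members. Without these 2 genes, a choice made once the data had been seen, the sum had a log2 ratio of 0.12 for glutamatergic-like and 0.19 for GABAergic-like nuclei.

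Members were counted as higher or lower at a log2 ratio of 0.25 or more in size, the fold used in the study, among those with 100 or more UMIs, both libraries together, in the cell type. In glutamatergic-like nuclei 11 of 43 were higher and 0 lower. Of all 14256 genes with that many UMIs there, 20.6% were higher and 3.15% lower, so the share of members, 25.6%, was near the background. In GABAergic-like nuclei 20 of 38 members (52.6%) were higher and 0 lower, against 25.5% and 4.48% of all genes. The median member was at 0.15 for glutamatergic-like and 0.27 for GABAergic-like nuclei. After centring on the median of all genes the counts were 7 higher and 0 lower of 43, with 14.8% of all genes higher, and 12 higher and 0 lower of 38, with 17.5%. After thinning to 1000 UMIs per nucleus only 18 and 2 members kept 100 UMIs, of which 3 and 0 were higher, against 16.8% and 13% of all genes. With the same weight for every nucleus the counts were 8 of 43 and 11 of 38, against 19.9% and 21.9%.

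Among the 20S core subunits with at least 100 UMIs in glutamatergic-like nuclei, constitutive beta subunits held the 3 highest ratios there. The inducible Psmb9, with 4 and 16 UMIs, was at 2.14 (0.51 to 4.18). Psmb5, which carries the chymotrypsin-like site, had 280 UMIs in vehicle and 397 in OLE in glutamatergic-like nuclei, 6.01 and 9.37 CPM, a log2 ratio of 0.64 (0.42 to 0.87). In GABAergic-like nuclei it had 51 and 83 UMIs, a ratio of 0.83 (0.31 to 1.36). In oligodendrocyte-like nuclei it had 19 and 35, a ratio of 1.18 (0.33 to 2.07), and in the low-UMI clusters 98 and 285, a ratio of 0.96 (0.62 to 1.31). Psmb5 was thus higher in OLE in each of these populations. In microglia-like nuclei it had 19 and 16 UMIs, a ratio of 0.04 (-1.02 to 1.08), which at this depth leaves a wide range, and over all deposited nuclei 567 and 1007.

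Psmb6, which carries the caspase-like site, had 288 and 370 UMIs in glutamatergic-like nuclei, 6.18 and 8.74 CPM, a log2 ratio of 0.50 (0.27 to 0.73). In GABAergic-like nuclei it had 57 and 80, a ratio of 0.61 (0.11 to 1.13). Psmb4, a structural beta subunit, was at 0.35 (0.13 to 0.57) and 0.43 (-0.10 to 0.97) in the same types. The catalytic subunit Psmb7, with the trypsin-like site, did not follow the others: it had 1468 and 1365 UMIs in glutamatergic-like nuclei, a ratio of 0.03, and 104 and 59 in oligodendrocyte-like nuclei, a ratio of -0.52 (-1.01 to -0.04). Psmb2 was among the 3 lowest members with at least 200 UMIs in glutamatergic-like nuclei, with 3331 and 2888 UMIs and a ratio of -0.07 (-0.14 to 0.00). In all, 3 of 7 constitutive beta subunits were higher in glutamatergic-like and 4 of 7 in GABAergic-like nuclei, against 20.6% and 25.5% of all genes.

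By median ratio the alpha subunits were flatter than the constitutive beta subunits, but by sum they were not in glutamatergic-like nuclei. There the summed log2 ratio was 0.09 (0.06 to 0.13) for alpha and 0.08 (0.03 to 0.13) for constitutive beta subunits. In GABAergic-like nuclei these sums were at 0.13 (0.04 to 0.22) and 0.20 (0.08 to 0.32). The median ratio of the 7 alpha subunits with enough UMIs was 0.06 in glutamatergic-like nuclei. None of the 7 was past the fold there, against 20.6% of all genes. In GABAergic-like nuclei 2 of 7 were past it, against 25.5% of all genes. The larger of these was Psma4, at 0.62 on the log2 scale with 111 and 156 UMIs (0.26 to 0.98) in GABAergic-like nuclei, beside 836 and 780 UMIs and 0.04 in glutamatergic-like nuclei. The other was Psma1. Psma5 and Psma2 were among the 3 lowest members with at least 200 UMIs in GABAergic-like nuclei, at -0.15 (-0.48 to 0.17) and -0.12 (-0.38 to 0.15), both with intervals that include 0. Psma2 overlaps another annotated gene on its own strand, so its count may be shared.

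Among the regulatory subunits, the ATPases of the cap ranged from 0.03 to 0.29 in glutamatergic-like nuclei and from -0.03 to 0.66 in GABAergic-like nuclei. Their summed log2 ratio was 0.19 for glutamatergic-like and 0.29 for GABAergic-like nuclei. Past the fold were 3 and 4 of the 6, against 20.6% and 25.5% of all genes. Psmc5 had 740 and 804 UMIs in glutamatergic-like nuclei, a ratio of 0.26 (0.11 to 0.40), and 91 and 132 in GABAergic-like nuclei, a ratio of 0.66 (0.27 to 1.06), the highest there among members with at least 200 UMIs. Psmc4 was at 0.29 (0.14 to 0.44) and Psmc3 at 0.25 (0.09 to 0.42) in glutamatergic-like nuclei. For 5 of the 6 ATPases the interval lay above 0 in glutamatergic-like nuclei, as it did for 4283 of all 14256 genes counted there.

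The non-ATPase subunits of the cap were mixed. Of 11, 2 were past the fold in glutamatergic-like nuclei and 7 in GABAergic-like nuclei, against 20.6% and 25.5% of all genes. Psmd8, which lies in the lid, had a log2 ratio of 0.38 from 312 and 369 UMIs in glutamatergic-like nuclei (0.16 to 0.60). Psmd2, which receives ubiquitin-like shuttle factors, had 660 and 733, a ratio of 0.29 (0.14 to 0.44), and 97 and 127 in GABAergic-like nuclei, a ratio of 0.51 (0.12 to 0.91). The lid subunit Psmd7 partners Psmd14 in the cap, but their ratios differed: Psmd7 had 1827 and 1938 UMIs in glutamatergic-like nuclei, a ratio of 0.22 (0.13 to 0.32), and the interval of Psmd14 lay below 0. The lid subunit Psmd11 was also among those 3 lowest in GABAergic-like nuclei, with 548 and 470 UMIs and a ratio of -0.10 (-0.28 to 0.08).

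The remaining members were the activators, the inhibitor and the chaperones. Psme1 and Psme2, which encode the PA28 cap that interferon induces, had 143 and 168 and 75 and 87 UMIs in glutamatergic-like nuclei, ratios of 0.37 (0.04 to 0.70) and 0.35 (-0.11 to 0.82). The inhibitor Psmf1 was at 0.07 in glutamatergic-like nuclei. The core chaperone Psmg2 had 475 and 555 UMIs there, a ratio of 0.36 (0.18 to 0.54), while its partner Psmg1 had 283 and 243, a ratio of -0.08 (-0.34 to 0.17), among the 3 lowest with at least 200 UMIs. The 3 chaperones of the cap with Psmd names lay between the folds in glutamatergic-like nuclei, and 1 of 2, Psmd5, was past it in GABAergic-like nuclei.

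**Figure D2:**
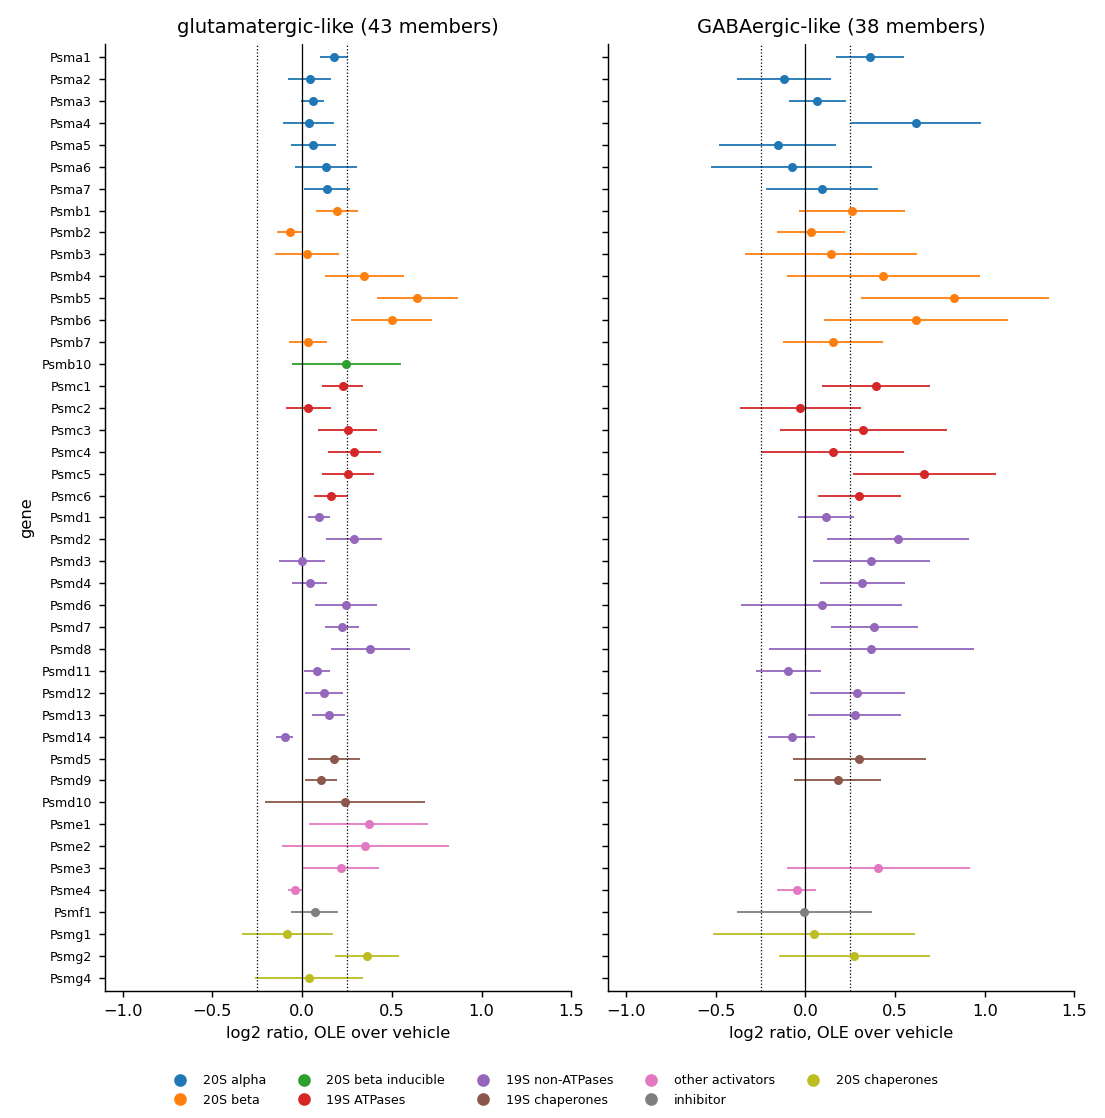
Log2 ratio of OLE over vehicle (horizontal axis) for each member with at least 100 UMIs in glutamatergic-like nuclei (left, 43 members) and GABAergic-like nuclei (right, 38 members), with 95% intervals for counting error, coloured by role; dotted lines mark 0.25 in either direction. Psmb5 and Psmb6 lie farthest to the right in glutamatergic-like nuclei, at 0.64 and 0.50, and Psmd14 farthest to the left, at -0.10.

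The core and regulatory sums had similar ratios in the neurons. In glutamatergic-like nuclei the core sum had 18888 UMIs in vehicle and 18289 in OLE and a log2 ratio of 0.09, and the regulatory sum was also at 0.09. The difference, core minus regulatory, was 0.0025 (-0.03 to 0.04) in glutamatergic-like and -0.01 (-0.10 to 0.08) in GABAergic-like nuclei. It was -0.03 (-0.19 to 0.14) in oligodendrocyte-like, 0.12 (-0.19 to 0.43) in OPC-like, 0.10 (-0.15 to 0.34) in microglia-like and 0.12 (-0.15 to 0.40) in astrocyte-like nuclei, and each of these intervals includes 0. Thinned to 1000 UMIs per nucleus, the difference in glutamatergic-like nuclei was -0.11. Core genes gave 36.0% and 36.1% of core and regulatory UMIs in glutamatergic-like nuclei, and 42.0% (39.2 to 44.8) and 43.6% (40.6 to 46.7) in microglia-like nuclei. In the low-UMI clusters the difference was 0.13 (0.05 to 0.20), with Psmb5 at 0.96 and Psma6 at 0.54 (0.27 to 0.82) the highest members there with at least 100 UMIs. These clusters are split by library, and library and treatment cannot be told apart in them.

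The difference between the libraries was spread over the neuronal clusters. In all 13 glutamatergic-like clusters the summed log2 ratio, not centred on the median gene, was above 0, from 0.03 to 0.15 with a median of 0.06, and in 8 of them the interval lay above 0. The core ratio exceeded the regulatory ratio in 8 of the 13. The 2 GABAergic-like clusters, with Sst and Vip among their leading genes, were at 0.14 and 0.12. The clusters come from the same 2 libraries and are not replicates.

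**Figure D3:**
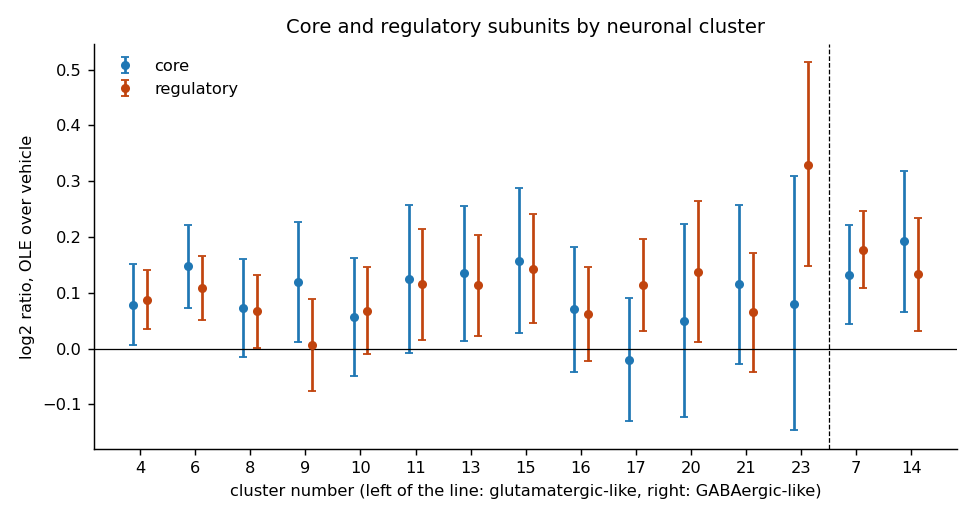
Log2 ratio of OLE over vehicle (vertical axis) of the summed core (blue) and regulatory (orange) UMIs in each neuronal cluster (horizontal axis; 13 glutamatergic-like clusters left of the dashed line and 2 GABAergic-like clusters right of it), with 95% intervals for counting error. Core and regulatory intervals overlap within every cluster.

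Short genes had higher ratios in both neuronal types, and most proteasome genes are short. Members with enough UMIs had a median length of 12.6 kb in glutamatergic-like nuclei, against 28.5 kb for all genes. With genes split by length into 4 classes of equal size, in the shortest class there (up to 12.1 kb), 39.4% of all genes and 9 of 20 members were higher. In the next class (to 28.5 kb) it was 19.8% and 2 of 14, and in the longer classes 12.3% and 11.1% of all genes and 0 of 5 and 0 of 4 members. In GABAergic-like nuclei the shortest class (up to 16.3 kb) had 50.6% of all genes and 15 of 20 members higher, with medians of 0.25 and 0.37. Across genes the Spearman correlation of length with ratio was -0.34 for glutamatergic-like and -0.42 for GABAergic-like nuclei for all genes, and -0.65 over 43 and -0.69 over 38 members, as a description. The part of gene length in the members' ratios was not tested.

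**Figure D4:**
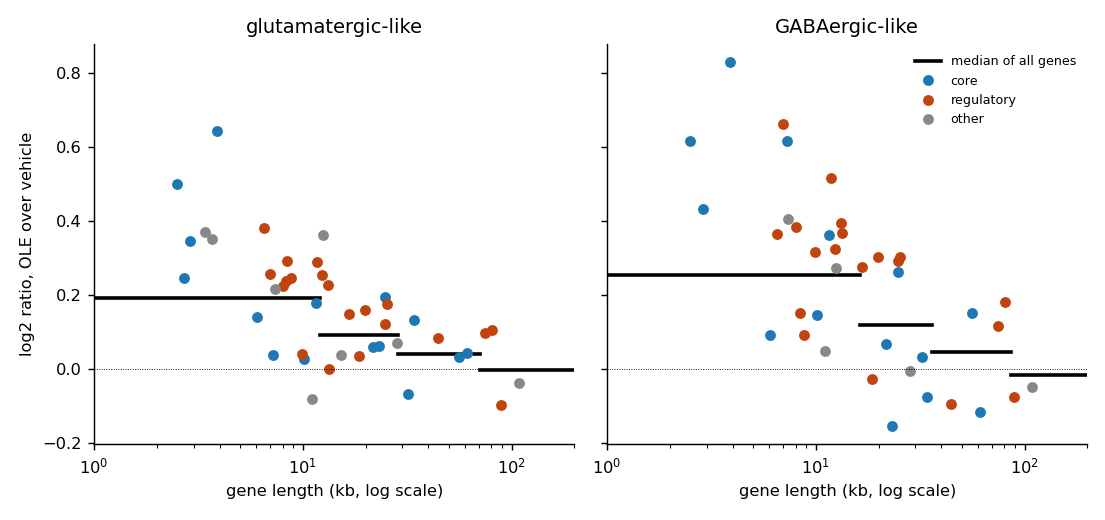
Log2 ratio of OLE over vehicle (vertical axis) against gene length in kb (horizontal axis, log scale) for members with at least 100 UMIs in glutamatergic-like (left) and GABAergic-like nuclei (right), with black lines at the median of all genes in each of 4 classes of length, drawn between 1 and 200 kb. Members and all genes fall together with length, and Psmb5 and Psmb6 stand above the line of the shortest class, which is at 0.19 and 0.25.

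Other genes that move with these values were read from lists. The 84 cytosolic ribosomal protein genes, also short, had a summed log2 ratio of 0.49 in both glutamatergic-like (0.48 to 0.51) and GABAergic-like nuclei (0.45 to 0.54). Past the fold were 63 of 80 and 53 of 63, against 20.6% and 25.5% of all genes. The 6 nuclear-retained RNAs, a sign of RNA quality, had a summed ratio of 0.14 and 0.11. Their median ratios were lower, at 0.06 and 0.04, and 0 of 6 were past the fold in each type. The 13 mitochondrially encoded genes had a summed ratio of -0.12 and -0.06. Markers of GABAergic neurons, which glutamatergic nuclei should lack, went from 233 to 319 CPM in glutamatergic-like nuclei, a ratio of 0.45, with 8 of 11 past the fold. Endothelial markers were at 0.38 (0.21 to 0.54), vascular leptomeningeal markers at 0.34 (0.21 to 0.46) and microglia markers at 0.13 (0.05 to 0.20) there. Only 2 endothelial genes had at least 100 UMIs there, at 0.63 and -0.21. Astrocyte markers were lower in these nuclei, at -0.08 (-0.11 to -0.05). Markers of oligodendrocytes, at -0.03, OPCs, at 0.0035, and mural cells, at 0.05, had intervals that include 0 there. In GABAergic-like nuclei the markers of glutamatergic neurons were at -0.25 (-0.32 to -0.17) and those of astrocytes at -0.12 (-0.21 to -0.03). Markers of microglia were at 0.43 (0.26 to 0.61), of oligodendrocytes at 0.30 (0.16 to 0.43) and of OPCs at 0.16 (0.10 to 0.21). Those of mural cells were at 0.63 (0.06 to 1.22), from only 45 and 64 UMIs, with 0 of 7 genes at 100 UMIs. Endothelial markers, at -0.02 (-0.48 to 0.44), and vascular leptomeningeal markers, at -0.32 (-0.81 to 0.16), had intervals that include 0. The part of all these lists in the members' ratios was not tested.

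Glia gave fewer members to count. In oligodendrocyte-like nuclei 7 of 21 were higher and 3 lower, against 17.8% and 11.4% of all genes. Psmd7 led among those with at least 200 UMIs, at a log2 ratio of 0.50 (0.11 to 0.88) from 109 and 125 UMIs, followed by Psmd11 at 0.28 (-0.04 to 0.60) and Psmd1 at 0.22 (-0.06 to 0.51). The lowest were Psme4 at -0.07 (-0.26 to 0.11), Psma3 at 0.04 (-0.29 to 0.36) and Psma1 at 0.04 (-0.37 to 0.45). The 3 members below the fold were Psmb7, Psmd4 and Psma5. Psmb5, with fewer UMIs, was higher than any of these, as given above.

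In OPC-like nuclei 0 of 5 members were higher and 2 lower, against 15.6% and 16.5% of all genes. Psmd1 had 105 and 51 UMIs, 136 and 79.8 CPM, a log2 ratio of -0.77 (-1.29 to -0.28), and Psmd11 72 and 39 UMIs, a ratio of -0.62 (-1.22 to -0.03). In glutamatergic-like nuclei the same genes were at 0.10 (0.03 to 0.16) and 0.08 (0.01 to 0.16). In microglia-like nuclei 1 of 8 was higher and 0 lower, against 14.6% and 16.1%, and in astrocyte-like nuclei 2 of 6 and 0, against 15.3% and 17.7%. The higher member in microglia-like nuclei was Psmd7, with 48 and 54 UMIs and a ratio of 0.46 (-0.13 to 1.05). Those in astrocyte-like nuclei were Psme4, with 169 and 229 UMIs and a ratio of 0.28 (-0.01 to 0.58), and Psma3, with 59 and 91 and a ratio of 0.47 (-0.02 to 0.97). Psme4 was the only member with at least 200 UMIs in OPC-like, microglia-like or astrocyte-like nuclei, and was at -0.19 (-0.51 to 0.13) and -0.10 (-0.40 to 0.19) in the first and second. In the low-UMI clusters 10 of 41 were higher and 0 lower, against 13.6% and 6.78%.

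The immunoproteasome subunits had their highest share in microglia-like nuclei in both libraries. Psmb9, Psmb10 and Psmb8 gave 54 UMIs beside 68 of Psmb5, Psmb6 and Psmb7 in microglia-like nuclei in vehicle, a share of 44.3% (35.3 to 53.5), and 45 beside 66 in OLE, 40.5% (31.3 to 50.3). The share was 8.90% and 9.32% in glutamatergic-like nuclei, 9.30% and 6.85% in GABAergic-like, 4.17% and 8.11% in oligodendrocyte-like, 18.8% and 8.33% in OPC-like, and 14.9% and 16.9% in astrocyte-like nuclei. Within each library the interval of microglia-like nuclei overlapped that of none of the other 5 types, while the vehicle and OLE intervals of microglia-like nuclei overlapped. A difference between the libraries in this share was not detectable at this depth. These are shares of UMIs, not corrected for gene length, and Psmb7 is 56.1 kb long against 2.7 kb for Psmb10.

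Psmb9, which replaces Psmb6, had 30 and 22 UMIs in microglia-like nuclei beside 12 and 19 of Psmb6, a share of 71.4% (55.4 to 84.3) and 53.7% (37.4 to 69.3). It was found in 7.46% of microglia-like nuclei in vehicle and 7.41% in OLE, against 0.201% and 0.724% of glutamatergic-like nuclei despite their greater depth, so these shares are above the background. Psmb8, which replaces Psmb5, had 12 and 10 UMIs there beside 19 and 16, and Psmb10, which replaces Psmb7, 12 and 13 beside 37 and 31. In glutamatergic-like nuclei nearly all of the inducible UMIs were of Psmb10, with 178 and 192, beside 17 and 11 of Psmb8 and 4 and 16 of Psmb9. Psmb9 overlaps Tap1 on the opposite strand.

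**Figure D5:**
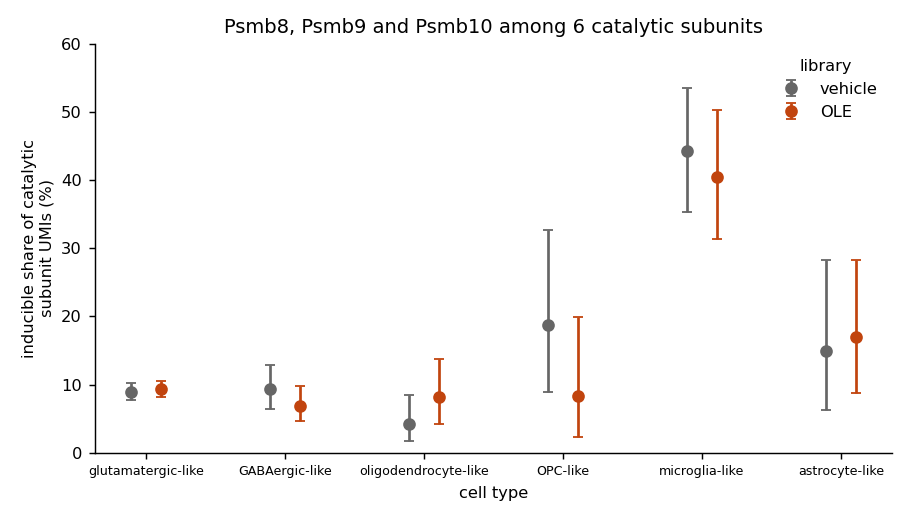
Share of the UMIs of 6 catalytic subunits that came from the inducible genes Psmb8, Psmb9 and Psmb10 (vertical axis, percent) in each cell type (horizontal axis) of the vehicle (grey) and OLE (orange) library, with exact binomial 95% intervals. Microglia-like nuclei are at 44.3% and 40.5%, above the intervals of the other 5 types.

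The partners of the immunoproteasome in antigen presentation, as a sum, were higher in OLE in microglia-like nuclei and in other cell types. The list of 9 genes had a summed log2 ratio of 0.55 (0.41 to 0.68) there, 0.62 (0.28 to 0.97) in OPC-like, 0.37 (0.03 to 0.72) in astrocyte-like, 0.36 (0.11 to 0.60) in oligodendrocyte-like, 0.19 (0.11 to 0.27) in glutamatergic-like and 0.18 (-0.04 to 0.40) in GABAergic-like nuclei. The summed inducible or tissue-specific beta subunits, with 54 and 45 UMIs in microglia-like nuclei, were at 0.02 there, with an interval of -0.58 to 0.62 that holds the value of the list. In microglia-like nuclei the class I heavy chain H2-D1 had 129 and 232 UMIs, a ratio of 1.13 (0.82 to 1.45), H2-K1 151 and 202, a ratio of 0.71 (0.39 to 1.02), and their light chain B2m 227 and 273, a ratio of 0.55 (0.29 to 0.81). Of the 5 list genes with at least 100 UMIs there, 4 were higher and 1 lower, against 14.6% and 16.1% of all genes. The nuclear-retained RNAs had a summed ratio of 0.13 (0.10 to 0.16) in microglia-like nuclei, and the ribosomal protein genes 0.36 (0.29 to 0.43) with 15 of 23 past the fold, and their part in these values was not tested.

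Among genes that work with the proteasome, the list of ubiquitin and unfolding genes was higher in neurons. Its summed log2 ratio was 0.26 for glutamatergic-like and 0.37 for GABAergic-like nuclei. Past the fold were 5 of 10 in each, against 20.6% and 25.5% of all genes. The ubiquitin precursor Ubb had 1484 and 2606 UMIs in glutamatergic-like nuclei, a ratio of 0.95 (0.86 to 1.04), while Vcp, the unfolding ATPase, was at 0.11 (0.03 to 0.20). The 16 partners of the proteasome without a Psm symbol were flat, with sums of -0.02 and -0.00058 and 2 of 16 and 3 of 15 higher. Among them the core maturation factor Pomp had 520 and 568 UMIs in glutamatergic-like nuclei, a ratio of 0.26 (0.09 to 0.44), the cap subunit Sem1 996 and 1026, a ratio of 0.18 (0.05 to 0.31), the ubiquitin receptor Adrm1 223 and 214, a ratio of 0.08 (-0.20 to 0.36), and the deubiquitinase Usp14 3811 and 3610, a ratio of 0.06 (-0.01 to 0.13).

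The list of genes that control proteasome transcription had summed ratios of 0.09 for glutamatergic-like and 0.17 for GABAergic-like nuclei. Past the fold were 2 of 8 and 2 of 7, against 20.6% and 25.5% of all genes. Nfe2l1 had 1057 and 1302 UMIs in glutamatergic-like nuclei, 22.7 and 30.7 CPM, a log2 ratio of 0.44 (0.32 to 0.56). In GABAergic-like nuclei it had 159 and 257, a ratio of 0.82 (0.53 to 1.11), and in microglia-like nuclei 37 and 27, a ratio of -0.17 (-0.94 to 0.59). The protease Ddi2, which activates the NRF1 protein, had 2915 and 2658 UMIs in glutamatergic-like nuclei, a ratio of 0.0043, and Ngly1, which removes its glycans, 1408 and 1139, a ratio of -0.17 (-0.28 to -0.05). Of members with the promoter motif shown above, 2 of 6 were past the fold in glutamatergic-like nuclei and 4 of 6 in GABAergic-like nuclei. Without the motif the counts were 7 of 30 and 11 of 25, beside 20.6% and 25.5% of all genes. Psmb5 and Psmb6 were the pair with the motif past the fold in glutamatergic-like nuclei, while Psme4, which also holds it, was at -0.04.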

How the data were processed

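Nuclei were isolated from frozen entorhinal cortex, and libraries were made with 10X 3′ v3 chemistry. Per the labels, the authors aligned reads with Cell Ranger 3.0.1 to an mm10 pre-mRNA reference, so that introns counted, and used Seurat 4.0.4. The deposited values are raw UMI counts per gene and nucleus, without normalization, and 0 columns were left unused. The authors removed doublets in Seurat, with a caller not given in the sources used here, but the nuclei deposited are as many as were sequenced.

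Scrublet (scanpy 1.11.5) was therefore run on each library at an expected doublet rate of 5%. Its automatic threshold called 0.104% and 0.130% of nuclei, under 0.5%, so the top 5% of scores (331 vehicle and 289 OLE nuclei) were removed. Counts were normalized with SCTransform (3000 variable genes, members left out; Seurat 5.3.0, sctransform 0.4.2, R 4.3.3) and clustered on 30 components and 20 neighbours at resolution 0.4. A marker counted where it was at 25% or more of its highest cluster and in 10% of nuclei. A name needed 3 markers and 40% of its list, with no other class at 50%. Clusters below 50% of their class's median UMIs stayed unnamed. This naming rule was set after the clusters had been seen.

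For each cell type, UMIs were added up in each library and scaled to 1000000, and the log2 of OLE over vehicle was taken with no pseudocount. No test was run, since each condition had 1 library. Intervals are exact Poisson (levels), Clopper-Pearson (shares and ratios) or conditional odds-ratio intervals (core minus regulatory), at 95%. Only the ratio intervals were tried on simulated data, for glutamatergic-like and microglia-like nuclei. The simulated counts had counting error alone, so the trial does not bear on the spread between mice. Members counted in a cell type had 100 UMIs or more over both libraries. Named were the 3 highest and 3 lowest members with 200 UMIs, the 5 with most UMIs, the catalytic subunits, Nfe2l1, Sem1, Pomp, Adrm1 and Usp14, while other genes named were chosen after their values were seen. Members and lists were chosen with earlier results of these data known. Gene positions come from GENCODE vM21 (GRCm38), which matched all 49 members, and promoters from RefSeq. Software was Python 3.11.15 with scipy 1.17.1, numpy 2.4.6, pandas 2.3.3 and matplotlib 3.10.9. Some genes of the marker and partner lists entered the list sums and counts but are not reported singly here.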

Additional observations from a re-analysis of the deposited data

Results flagged for a closer look

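For 2 subunits of the regulatory cap the counting intervals lay on opposite sides of 0 in 2 cell types. Psmd1 had a log2 ratio of 0.096 in glutamatergic-like nuclei and -0.77 in OPC-like nuclei, and Psmd11 0.083 and -0.62. The difference between the cell types was not tested, since each condition was 1 library, and the OPC-like values rest on 101 and 84 nuclei. Psmd1 overlaps another annotated gene on its own strand.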

How the results depend on the processing

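No paired analysis was possible because each condition had 1 library, and for the same reason no replicate could be left out. Of 84 alternative values under 12 settings, 69 stayed within the counting interval of the main value, or within 1.5 times a main count, and the 50 of the summed ratios all kept the sign of the main value. Some of the 69 could not move: core minus regulatory is unaffected by the total or the centring. Leaving out nuclei at 5% or more mitochondrial UMIs did not change the glutamatergic-like values. The core minus regulatory difference, near 0, did not keep its sign. With the same weight for every nucleus it was -0.0040 in glutamatergic-like nuclei, and thinned it was 0.03 in GABAergic-like nuclei. Centred on the median of all genes, the summed log2 ratio was 0.0044 for glutamatergic-like and 0.047 for GABAergic-like nuclei, and 7 and 12 members were past the fold in place of 11 and 20, with 14.8% and 17.5% of all genes. Thinned to 1000 UMIs per nucleus, the sum was at 0.024 in glutamatergic-like, -0.25 in OPC-like and 0.21 in microglia-like nuclei, the core minus regulatory difference in glutamatergic-like nuclei was -0.11, and 3 of 18 and 0 of 2 members that still had 100 UMIs were past the fold, with 16.8% and 13% of all genes. With the same weight for every nucleus 11 members were past it in GABAergic-like nuclei, with 21.9% of all genes, and at a fold of 0.5 on the log2 scale 1 and 5, with 5.82% and 8.07%. Without Psme4 and Psmd14, chosen after seeing the data, the sums were at 0.12 for glutamatergic-like and 0.19 for GABAergic-like nuclei. The causes of these shifts were not tested beyond the fewer UMIs that thinning leaves. Depth limits glia: 21 members in oligodendrocyte-like nuclei and 5 to 8 in the other glia had 100 UMIs.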

Other observations

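In the low-UMI clusters, which enter no cell type, Pomp and Sem1 were higher in OLE, as in glutamatergic-like nuclei, and Nfe2l1 was not. The maturation factor Pomp had 214 UMIs in vehicle and 446 in OLE in these clusters, 32.2 and 44.9 CPM (counts per 1000000 UMIs), a log2 ratio of 0.48 (0.24 to 0.72). The cap subunit Sem1 had 262 and 501, a ratio of 0.35 (0.14 to 0.58). The transcription factor Nfe2l1, higher in OLE in glutamatergic-like nuclei at 0.44, had 432 and 570 UMIs in these clusters, 65.0 and 57.3 CPM (counts per 1000000 UMIs), a ratio of -0.18 (-0.36 to 0.00). The difference was not tested, and the 2 clusters are split by library. Below the minimum of UMIs used for counting members, Psmc5 in astrocyte-like nuclei had 11 and 30 UMIs, a ratio of 1.29 (0.26 to 2.44), and Psmd7 in OPC-like nuclei 31 and 45, a ratio of 0.81 (0.11 to 1.52), both chosen after their values were seen.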
